A study of Rattus norvegicus with 12 samples.

Results

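The 9 genes described here encode transcriptional regulators of mitochondrial and lipid metabolism in kidney tubules: the coactivators Ppargc1a (PGC-1α) and Ppargc1b (PGC-1β), the fatty acid receptors Ppara, Ppard and Pparg, their dimer partner Rxra, the orphan receptor Esrra (ERRα), the bile acid receptor Nr1h4 (FXR) and the mitochondrial transcription factor Tfam. They were chosen by name, as array rows annotated with exactly 1 of these symbols. Earlier results of these data, in which fatty acid oxidation genes and Mir182 stood out, were known at that choice. All 9 were measured, among 18166 genes with a value on every array. Each had 1 row except Ppard, which had 2.

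Kidney RNA of rats was hybridised to 12 arrays after ischemia-reperfusion injury (IRI), in which blood flow to the kidney is stopped and restored. The rats had received anti-miR-182, which inhibits the microRNA miR-182, or placebo, and kidneys were taken at day 7 or day 2. The 4 groups were anti-miR-182 at day 7, placebo at day 7, anti-miR-182 at day 2 and placebo at day 2, with 3 arrays each and a separate animal code for every array. All groups carried the injury, and no uninjured kidney was analysed here. Strain, age and sex of the rats, and the dose, schedule and chemistry of anti-miR-182, were not found in the labels. The signals come from kidney tissue, so that fewer cells of a type and less RNA per cell cannot be told apart.

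PGC-1α and PGC-1β bind no DNA themselves but are recruited by receptors such as ERRα and PPARα to genes of fatty acid oxidation, the citric acid cycle and the respiratory chain. PPARs bind DNA as dimers with RXRα and are activated by fatty acids or their derivatives, and TFAM packages mitochondrial DNA and starts its transcription. The proximal tubule, which runs on fatty acid oxidation, is the main site of this programme in the kidney.

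The mature miR-182 that the inhibitor is directed at is shown first, with its seed (bases 2 to 8) in capitals. Promoters (250 bases before to 50 after the annotated start, RefSeq, build GRCr8) follow for the member with the largest difference between days (Ppara), for the other member called in both treatments (Tfam), and for Ppargc1a, whose signal differed little. The Ppargc1a and Ppara windows lie inside their annotated genes, which extend further to both sides, so they show the start that the RefSeq promoter table lists and not the outer end of the gene. Capitals mark matches to the motifs searched, on either strand.
rno-miR-182 (chr4:59752249-59752273, - strand): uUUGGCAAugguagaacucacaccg
Ppara promoter (chr7:118712357-118712656, + strand): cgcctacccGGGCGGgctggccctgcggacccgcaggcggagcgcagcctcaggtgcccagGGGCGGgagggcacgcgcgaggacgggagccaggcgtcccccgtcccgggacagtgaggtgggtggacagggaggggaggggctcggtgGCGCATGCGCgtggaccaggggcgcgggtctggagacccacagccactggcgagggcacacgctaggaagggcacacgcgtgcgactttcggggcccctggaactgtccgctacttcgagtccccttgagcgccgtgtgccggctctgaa
Tfam promoter (chr20:17355123-17355422, + strand): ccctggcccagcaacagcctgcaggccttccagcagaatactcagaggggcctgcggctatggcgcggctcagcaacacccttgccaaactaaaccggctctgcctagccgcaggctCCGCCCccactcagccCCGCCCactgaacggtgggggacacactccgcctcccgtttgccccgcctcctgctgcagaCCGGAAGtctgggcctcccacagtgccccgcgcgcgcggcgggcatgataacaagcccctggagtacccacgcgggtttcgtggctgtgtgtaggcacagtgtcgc
Ppargc1a promoter (chr14:63634058-63634357, + strand): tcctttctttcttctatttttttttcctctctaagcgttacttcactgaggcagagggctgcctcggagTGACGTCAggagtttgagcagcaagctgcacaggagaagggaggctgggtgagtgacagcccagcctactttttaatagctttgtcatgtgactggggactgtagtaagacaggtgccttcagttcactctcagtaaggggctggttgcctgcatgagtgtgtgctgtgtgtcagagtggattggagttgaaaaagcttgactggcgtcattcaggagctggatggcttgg

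Of the 9 members 7 had a promoter entry, and Ppard and Nr1h4 had none. Positions are counted from the start, with negative numbers before it. The Ppara promoter holds the 10-letter element of the nuclear respiratory factor NRF1 at -100 (the longest run of its capitals), which 0.85% of 33469 rat promoters of this length hold. The Tfam promoter holds CCGGAAG, the core bound by ETS factors such as GABPA, at -56, as do 8.75% of promoters. TGACGTCA, the element of the cyclic AMP responsive factor CREB, lies at -181 in Ppargc1a and in 1.83% of promoters. GGGCGG, the GC box of SP1, was found in 6 of the 7 member promoters, all but that of Ppargc1a, and in 33.06% of all promoters. No member promoter held TCAAGGTCA (the ERR element, 0.43% of promoters), AGGTCA (the nuclear receptor half-site, 16.18%), the PPAR-RXR repeat of that half-site with 1 base between (0.05%) or CACGTG (the E-box, 6.42%). The half-site is part of the ERR element and of the repeat. A match is only a match of letters, and the arrays did not measure binding.

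Median log2 signals over genes were 6.30 to 6.38 at day 7 and 6.42 to 6.57 at day 2. The leading principal component (51.9% of the variance) parted the days, and on the next (10.2%) anti-miR-182 day 2 replicate 3 stood at -29.4 against -9.2 to 15.4 on the other arrays. Values of 190 control rows were missing at day 2, and the distributions of the days differ, so day and normalization run cannot be told apart. The members' differences between days, and the counts of calls in each list, are therefore also given after centring each array on its median. The row of the miR-182 gene, Mir182, read 5.63, 6.0 and 4.93 under anti-miR-182 against 4.32, 3.97 and 4.75 in placebo at day 7, and 6.42, 6.21 and 6.57 against 4.84, 4.48 and 4.69 at day 2. It was higher under the inhibitor on both days without overlap, by 1.45 ± 0.17 on the log2 scale as a mean of the days (limma, adjusted p = 0.0104). The row lay below its array's median on 11 of 12 arrays, and the call was lost without anti-miR-182 day 2 replicate 3, placebo day 2 replicate 2 or 3 or anti-miR-182 day 7 replicate 1. Whether this row reads the mature microRNA, its precursor or the inhibitor is not given in the sources used here, so it does not check the inhibition.

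Between days, Ppara and Tfam were lower at day 7 under both treatments, and in placebo Nr1h4 and Rxra were lower and Pparg was higher. Under anti-miR-182 the test called 2 of the 9 members, both lower, where 27.5% of all genes were called (24.9% lower and 2.68% higher). In placebo it called 5 of 9, with 4 lower and 1 higher, where 28% of all genes were called (23.7% lower and 4.22% higher). The share of members called under anti-miR-182 was therefore near that of all genes, and in placebo it was above it. A call was an adjusted p under 0.05 in limma, with Benjamini-Hochberg adjustment over all 18166 genes. Both day comparisons contain the downward shift of the whole array, with a median over all genes of -0.205 under anti-miR-182 and -0.179 in placebo, beside medians of -0.21 and -0.30 over the members. After centring, 1 member under anti-miR-182 (Ppara) and 3 in placebo (Ppara, Tfam and Pparg) were called, where 13.7% (6.23% higher and 7.44% lower) and 17.8% (8.15% and 9.62%) of all genes were called. At an unadjusted p under 0.05 there were 3 members and 41.4% of genes under anti-miR-182, and 7 members and 41.3% of genes in placebo. Centring also changed the split of calls over all genes to 1131 higher and 1351 lower, against 487 and 4515 as deposited, under anti-miR-182, and to 1480 and 1748, against 766 and 4314, in placebo.

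**Figure D1:**
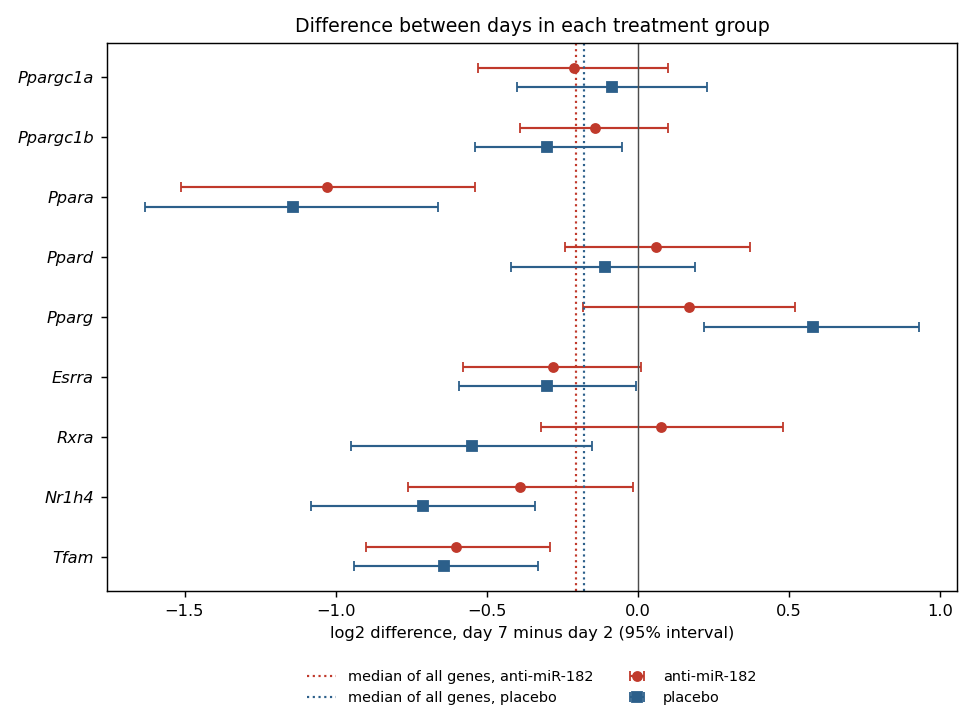
Log2 difference of each member between days (day 7 minus day 2), with 95% intervals from limma, for anti-miR-182 (red circles) and placebo (blue squares), and the median of all genes as dotted lines. Ppara lies furthest to the left in both treatments, at -1.03 and -1.14, and Tfam lies left of the dotted lines in both.

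Without a threshold on p, all 3 day 7 arrays lay below all 3 day 2 arrays for 2 members under anti-miR-182, where 35% of all genes did so, and 0 members lay wholly above, as 5.36% of genes did (40.4% in either direction). In placebo this held for 6 members, where 40% of all genes did so, and 1 member, Pparg, lay wholly above, as did 8.38% of genes (48.3% in either direction). Over both treatments together, Ppara and Tfam were the members whose 6 day 7 arrays all lay below the 6 day 2 arrays, a pattern shown by 19.9% of all genes, and 0 members showed the opposite one, shown by 2.41%.

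Between treatments, no member passed on either day. At day 7 and at day 2 alike 0 of 9 members and 0 of 18166 genes were called (0% each), while 3.26% of genes at day 7 and 6.61% at day 2 had an unadjusted p under 0.05, and 0 members did. Arrays of the treatments did not overlap for 2 members at day 7, both higher under anti-miR-182 (Nr1h4 and Ppargc1b), where 3.5% of genes were wholly higher and 3.75% wholly lower (7.26% in all). They did not overlap for 2 members at day 2, Esrra higher and Ppard lower, where 8.06% and 4.24% of genes did so (12.3% in all). As a mean of both days 0 members and 1 gene (0.0055%), Mir182, were called, with 5.27% of genes at an unadjusted p under 0.05. The change of the treatment difference between days called 0 genes (0%), with 3.92% of genes and 1 member, Rxra, at an unadjusted p under 0.05. The 95% intervals of the members' treatment differences reached from -0.77 (Rxra at day 2) to 0.71 (Nr1h4 at day 7) and so leave room for differences of that size. In simulated data the test found 91% of genes given a log2 difference of 1 on either day, and 7.5% at day 7 and 12.5% at day 2 of those given 0.5. That simulation changed 200 genes and drew independent noise with 1 spread per gene. In the arrays the spread differed between groups (median SD of a gene 0.112 to 0.179), so these shares need not hold for them. Mir182, at 1.18 at day 7 and 1.73 at day 2, was not called on either day (limma, adjusted p = 0.999 and 0.0771).

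**Figure D2:**
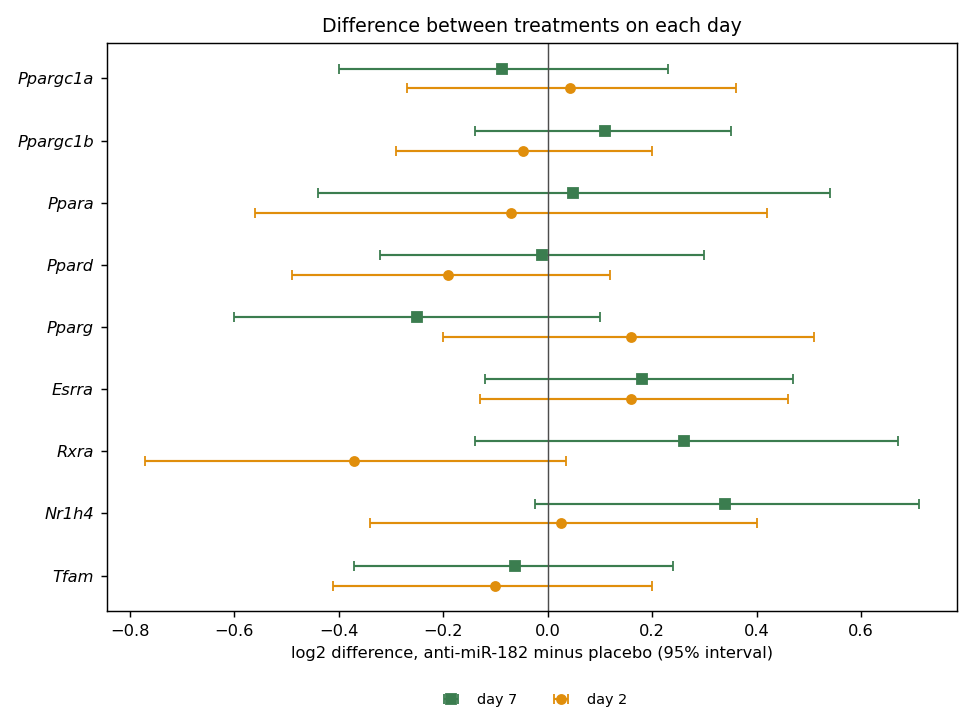
Log2 difference of each member between treatments (anti-miR-182 minus placebo), with 95% intervals from limma, at day 7 (green squares) and day 2 (orange circles). Every interval contains 0. The points furthest from 0 are Rxra at day 2, at -0.37, and Nr1h4 at day 7, at 0.34.

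Among the coactivators, Ppargc1a, which is induced by fasting, cold and exercise and is abundant in tubules, read 10.31, 10.16 and 10.26 under anti-miR-182 at day 7, against 10.29, 10.51 and 10.57 at day 2. In placebo it read 10.71, 10.10 and 10.18 at day 7, against 10.37, 10.42 and 10.46 at day 2. The groups overlap in both treatments, and placebo day 7 replicate 1 was the highest of all 12 arrays. The difference between days was -0.21 ± 0.15 under anti-miR-182 (limma, adjusted p = 0.287) and -0.08 ± 0.15 in placebo (adjusted p = 0.698), with centred values of -0.029 and 0.065, so its direction in placebo turns with the scaling. Treatments differed by -0.09 at day 7 (95% interval -0.40 to 0.23) and by 0.04 at day 2 (-0.27 to 0.36). The group means spanned 10.24 to 10.46, and no neighbours in that order were separated.

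Ppargc1b, the paralog that also coactivates ERRα, read 6.48, 6.55 and 6.44 under anti-miR-182 at day 7, against 6.70, 6.68 and 6.52 at day 2, and these ranges overlap. In placebo it read 6.44, 6.41 and 6.30 at day 7, against 6.90, 6.57 and 6.58 at day 2, without overlap. The differences were -0.14 ± 0.11 (limma, adjusted p = 0.37) and -0.30 ± 0.11 (adjusted p = 0.0657), or 0.04 and -0.15 after centring, so neither passed and the first changed sign. At day 7 the 3 anti-miR-182 arrays lay just above the placebo arrays, by 0.11 (95% interval -0.14 to 0.35), and at day 2 the treatments differed by -0.05 (-0.29 to 0.20).

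Ppara, the receptor that switches on fatty acid oxidation in liver and tubule, showed the largest difference between days of the 9 members. It read 6.55, 6.71 and 6.24 under anti-miR-182 at day 7, against 6.88, 7.88 and 7.82 at day 2, and in placebo 6.66, 6.41 and 6.29 at day 7, against 7.69, 7.33 and 7.77 at day 2. Every day 7 array lay below every day 2 array, and anti-miR-182 day 2 replicate 1 was the lowest of day 2 by a wide margin. Ppara was 2.04-fold lower at day 7 under anti-miR-182 (-1.03 ± 0.23 log2, limma, adjusted p = 0.00592) and 2.21-fold lower in placebo (-1.14 ± 0.23, adjusted p = 0.00336). After centring the differences were -0.84 (adjusted p = 0.0306) and -0.99 (adjusted p = 0.0118), and with quantile normalization -0.80 (adjusted p = 0.0294) and -0.93 (adjusted p = 0.014). The call held in both treatments with each array left out in turn, with differences of -1.35 to -0.85 under anti-miR-182 and of -1.28 to -1.06 in placebo. Treatments differed by 0.05 at day 7 (95% interval -0.44 to 0.54) and by -0.07 at day 2 (-0.56 to 0.42), and without anti-miR-182 day 2 replicate 1 the day 2 value was 0.25.

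Ppard, the widely expressed PPAR, read 6.41, 6.61 and 6.21 under anti-miR-182 at day 7, against 6.28, 6.37 and 6.40 at day 2, and in placebo 6.48, 6.66 and 6.12 at day 7, against 6.66, 6.43 and 6.52 at day 2. The days overlap in both treatments, with differences of 0.06 ± 0.14 (limma, adjusted p = 0.769) and -0.11 ± 0.14 (adjusted p = 0.578), or 0.25 and 0.035 after centring. At day 2 all 3 anti-miR-182 arrays lay below all placebo arrays, with a difference of -0.19 ± 0.14 (adjusted p = 0.846). The second, dimmer row of Ppard read 5.73 to 6.16 under anti-miR-182 and 5.80 to 5.96 in placebo at day 2 and did not show that separation. With the mean of both rows the day difference in placebo was 0.055, so the rows disagree in its direction.

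Pparg, the receptor that drives fat cell formation, was the dimmest member, below its array's median on 10 of 12 arrays. It read 5.93, 6.11 and 5.98 under anti-miR-182 at day 7, against 5.80, 6.12 and 5.59 at day 2, with overlap. In placebo it read 6.52, 6.38 and 5.87 at day 7, against 5.73, 5.63 and 5.69 at day 2, so that all day 7 arrays were higher and spread more widely. The difference was 0.17 ± 0.16 under anti-miR-182 (limma, adjusted p = 0.458, centred value 0.35), and in placebo Pparg was 1.49-fold higher at day 7 (0.58 ± 0.16, adjusted p = 0.0198; after centring 0.73, adjusted p = 0.00782). The placebo call was lost without placebo day 2 replicate 2 or 3 or placebo day 7 replicate 1 or 2, with adjusted p from 0.0529 to 0.0818. The test of whether the change between days differed between treatments did not pass (-0.41 ± 0.23, unadjusted p = 0.102, adjusted p = 0.999).

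Rxra, the shared dimer partner of PPARs and FXR, read 7.60, 8.02 and 7.33 under anti-miR-182 at day 7, against 7.41, 7.96 and 7.33 at day 2, and the days could not be separated (0.08 ± 0.19, limma, adjusted p = 0.778, centred value 0.26). In placebo it read 7.20, 7.59 and 7.37 at day 7, against 7.95, 8.02 and 7.84 at day 2, without overlap, and was 1.47-fold lower at day 7 (-0.55 ± 0.19, adjusted p = 0.0414). The placebo call was the weakest of the 5: it was lost after centring (-0.40, adjusted p = 0.116) and without any of placebo day 2 replicates 1, 2 and 3, placebo day 7 replicates 1 and 3 and anti-miR-182 day 7 replicate 1, where the adjusted p ran from 0.0531 to 0.131. Treatments differed by 0.26 at day 7 (95% interval -0.14 to 0.67) and by -0.37 at day 2 (-0.77 to 0.035), with overlapping arrays on both days. The change of this difference between days was 0.63 ± 0.26, with an unadjusted p of 0.0319 and an adjusted p of 0.999, and 0.45 to 0.83 with each array left out in turn.

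Esrra, the receptor through which PGC-1α acts on citric acid cycle and respiratory chain genes, read 6.45, 6.90 and 6.47 under anti-miR-182 at day 7, against 6.82, 7.0 and 6.86 at day 2, and these ranges overlap through day 7 replicate 2. In placebo it read 6.60, 6.21 and 6.47 at day 7, against 6.69, 6.76 and 6.74 at day 2, without overlap. The differences of -0.28 ± 0.14 (limma, adjusted p = 0.132) and -0.30 ± 0.14 (adjusted p = 0.113) did not pass, with centred values of -0.10 and -0.15, and without anti-miR-182 day 7 replicate 2 the first passed (-0.43, adjusted p = 0.0326). At day 2 all anti-miR-182 arrays were above all placebo arrays, by 0.16 ± 0.14 (adjusted p = 0.861). At day 7 the treatments differed by 0.18 (95% interval -0.12 to 0.47).

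Nr1h4, the bile acid receptor, which is also expressed in proximal tubules, read 8.50, 8.36 and 8.13 under anti-miR-182 at day 7, against 8.29, 8.71 and 9.15 at day 2, with overlap. In placebo it read 8.05, 7.90 and 8.01 at day 7, against 8.66, 8.72 and 8.70 at day 2, and the tight groups were well separated. The difference was -0.39 ± 0.17 under anti-miR-182 (limma, adjusted p = 0.106, centred value -0.20), and -0.60 (adjusted p = 0.0109) without anti-miR-182 day 2 replicate 1. In placebo Nr1h4 was 1.63-fold lower at day 7 (-0.71 ± 0.17, adjusted p = 0.00952), or -0.56 after centring (adjusted p = 0.0579). At day 7 all 3 anti-miR-182 arrays lay above all placebo arrays, by 0.34 ± 0.17 (unadjusted p = 0.0651, adjusted p = 0.999). At day 2 the treatments differed by 0.03 (95% interval -0.34 to 0.40), and the test of the change between days gave 0.32 ± 0.24 (adjusted p = 0.999).

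Tfam read 7.57, 7.56 and 7.68 under anti-miR-182 at day 7, against 7.82, 8.27 and 8.51 at day 2, and in placebo 7.66, 7.67 and 7.67 at day 7, against 8.33, 8.30 and 8.27 at day 2. The placebo arrays were close together on each day, and the days did not overlap in either treatment. Tfam was 1.51-fold lower at day 7 under anti-miR-182 (-0.60 ± 0.14, limma, adjusted p = 0.00855) and 1.55-fold lower in placebo (-0.64 ± 0.14, adjusted p = 0.00605). The call held with each array left out in turn in both treatments. After centring it held in placebo (-0.49, adjusted p = 0.047) but not under anti-miR-182 (-0.41, adjusted p = 0.0999), and with quantile normalization in neither (-0.34, adjusted p = 0.085, and -0.37, adjusted p = 0.06). Treatments differed by -0.06 at day 7 (95% interval -0.37 to 0.24) and by -0.10 at day 2 (-0.41 to 0.20).

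**Figure D3:**
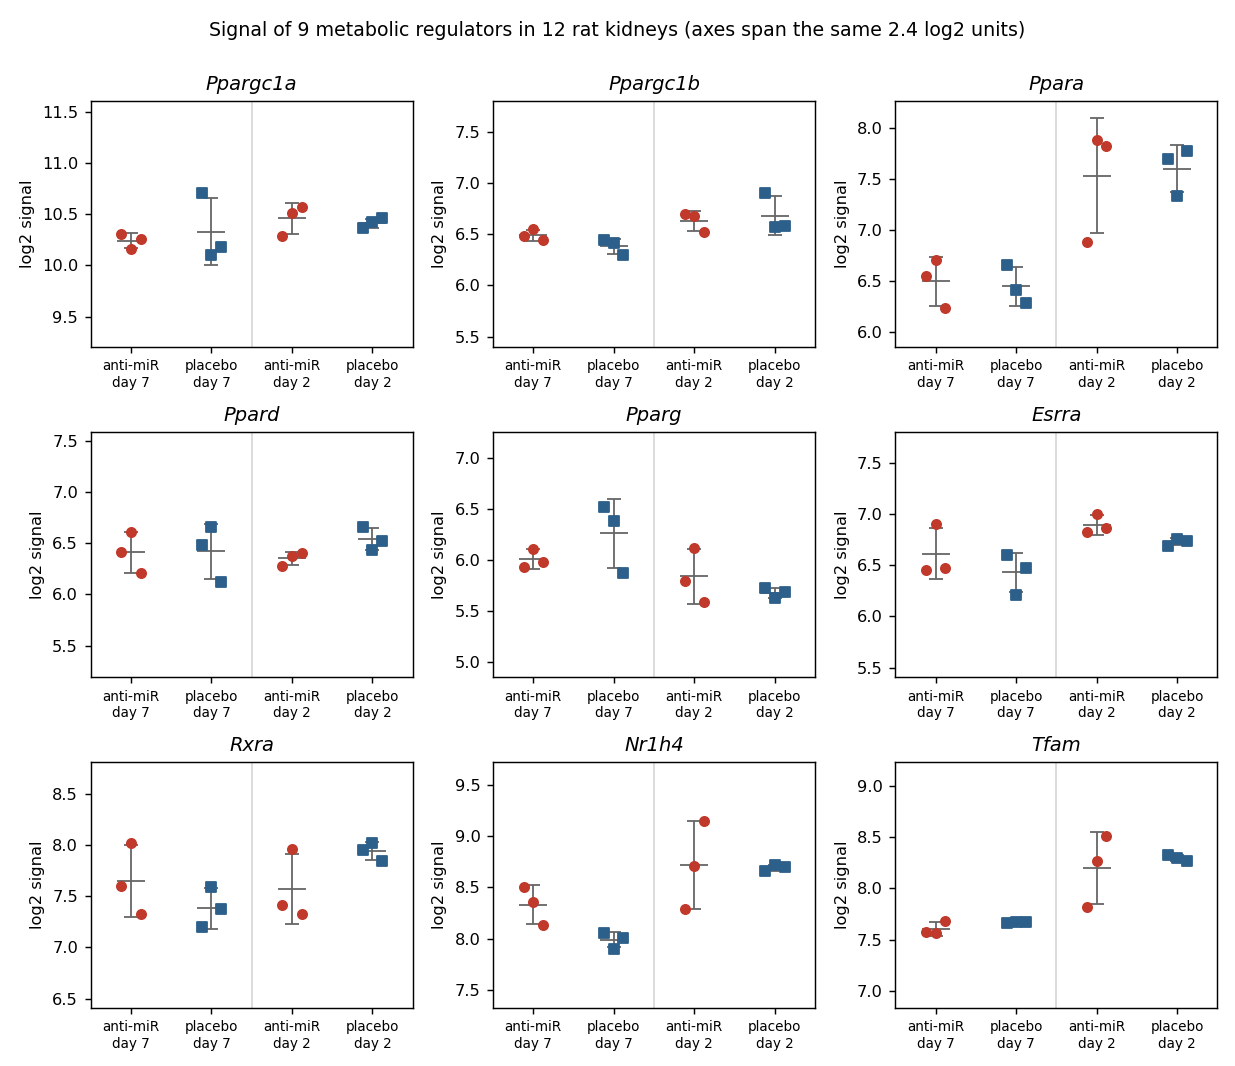
Log2 signal of the 9 members on each array (points), with mean and SD of each group (bars, n = 3), for anti-miR-182 (red circles) and placebo (blue squares) at day 7, on the left, and day 2. The axes differ in position but not in length, since levels of different genes are not comparable. Ppara and Tfam are lower on every day 7 array than on every day 2 array. Anti-miR-182 day 2 replicate 1 is the lowest day 2 array for Ppara, Nr1h4, Tfam, Ppargc1a and Ppard.

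Proximal tubule markers were lower at day 7 beside these differences. Of 13 measured markers 4 fell under anti-miR-182 and 7 in placebo at day 7, and all 13 were lower in each treatment, with medians of -0.36 and -0.47. Of all genes 24.9% and 23.7% fell, and after centring 1 and 4 of the markers did, beside 7.44% and 9.62% of all genes. Slc13a3, a dicarboxylate transporter, fell by 1.04 ± 0.27 under anti-miR-182 (limma, adjusted p = 0.0129) and by 1.45 ± 0.27 in placebo (adjusted p = 0.00231). The score of the list (mean log2 minus the array's median) was 3.21 to 4.12 under anti-miR-182 at day 7 against 3.74 to 4.39 at day 2, and 3.33 to 3.58 in placebo at day 7 against 4.11 to 4.24 at day 2. Anti-miR-182 day 2 replicate 1 had the lowest score of day 2, at 3.74, beside the highest collecting duct (1.81) and endothelial (2.01) scores of all arrays. It was also the lowest day 2 array for Ppara, Nr1h4, Tfam, Ppargc1a and Ppard, and not for the other members. The part of tubule content in these results was not tested.

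Fibroblast and macrophage markers had higher scores at day 7, and so did fat markers, beside Pparg. A score is taken relative to the array's median, which was itself lower at day 7. Without that subtraction 6 of 8 fat markers were higher at day 7 under anti-miR-182 and 4 of 8 in placebo. Their median differences were 0.10 and 0.033. The fibroblast score was 1.32 to 1.39 under anti-miR-182 at day 7 against 0.73 to 1.08 at day 2, and 1.58 to 2.4 in placebo against 0.90 to 1.14. The macrophage score was 1.29 to 1.45 against 0.88 to 1.09 under anti-miR-182, and 1.18 to 2.21 against 0.91 to 0.95 in placebo. The score of 8 fat markers was -0.16 to 0.018 at day 7 against -0.51 to -0.42 at day 2 under anti-miR-182, and -0.18 to 0.059 against -0.56 to -0.33 in placebo. Of 8 fibroblast markers 1 rose under anti-miR-182 and 2 in placebo, and of 10 macrophage markers 2 rose and 1 fell in each treatment. Of all genes 2.68% rose and 24.9% fell under anti-miR-182, and 4.22% rose and 23.7% fell in placebo. Of the 8 fat markers 1 rose under anti-miR-182 and 2 in placebo, while Adipoq, which marks fat cells, differed by -0.10 and -0.03 (adjusted p = 0.698 and 0.91). The part of these cells in the Pparg difference was not tested. Of the other lists, 6 of 10 collecting duct markers fell under anti-miR-182 and 3 in placebo, 1 of 5 endothelial markers fell under anti-miR-182 and 0 in placebo, and 0 thick ascending limb and 0 urothelial markers were called in either treatment, before or after centring. Of 4 adrenal cortex markers 0 and 1 rose, and of 10 tubular injury markers 2 rose and 1 fell under anti-miR-182 and 1 fell in placebo. After centring, 2 collecting duct markers fell in each treatment, 0 endothelial markers were called under anti-miR-182 and 2 rose in placebo, and 1 adrenal cortex marker rose in each. Among tubular injury markers 3 rose and 1 fell under anti-miR-182 and 1 rose in placebo after centring. Centring gave 3 and 4 macrophage, 1 and 4 fibroblast and 2 and 2 fat markers that rose, and 0 that fell. The centred shares of all genes were 6.23% and 8.15% that rose and 7.44% and 9.62% that fell.

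Genes that act around the 9 members were followed in 7 lists. These were drawn up with earlier results of these data known, in which fatty acid oxidation genes stood out. The test of whether a change between days differed between treatments called 0 of all 18166 genes. A gene called, or given, only under anti-miR-182 or only in placebo is therefore not shown to differ between treatments. The list of PPAR targets and fatty acid oxidation genes had 32 measured of 35: 21 fell under anti-miR-182 and 23 in placebo at day 7, and 0 rose. Its median was -0.51 under anti-miR-182 and -0.67 in placebo, beside -0.205 and -0.179 over all genes, and after centring 8 and 18 fell. Of all genes 24.9% and 23.7% fell, or 7.44% and 9.62% after centring. Ehhadh, the bifunctional enzyme of peroxisomal fatty acid oxidation, fell to a mean of 8.54 under anti-miR-182 at day 7, against 10.11 at day 2 (-1.56 ± 0.22, limma, adjusted p = 0.000453), and to 7.98 in placebo, against 10.27 (-2.29 ± 0.22, adjusted p = 5.98e-05). Vnn1, a pantetheinase induced by PPARα in liver, fell under both treatments (-1.2 ± 0.28, adjusted p = 0.00813, and -2.47 ± 0.28, adjusted p = 0.000134). Cpt2, a mitochondrial carnitine palmitoyltransferase, fell by 0.83 ± 0.12 and 0.86 ± 0.12 (adjusted p = 0.000696 and 0.000505). Fgf21, a fasting hormone, fell by 1.13 ± 0.15 and 0.61 ± 0.15 (adjusted p = 0.000366 and 0.0104). Pdk4, which shuts pyruvate oxidation, fell in placebo (-0.98 ± 0.27, adjusted p = 0.0164) and read -0.04 ± 0.27 under anti-miR-182 (adjusted p = 0.933). For Pdk4 the change between days did not differ between treatments past the threshold (0.94 ± 0.38, limma, unadjusted p = 0.026, adjusted p = 0.999). The anti-miR-182 count was 11 without day 2 replicate 2, 13 without day 7 replicate 1 and 12 without day 7 replicate 3, and 22 and 17 without day 2 replicates 1 and 3.

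**Figure D4:**
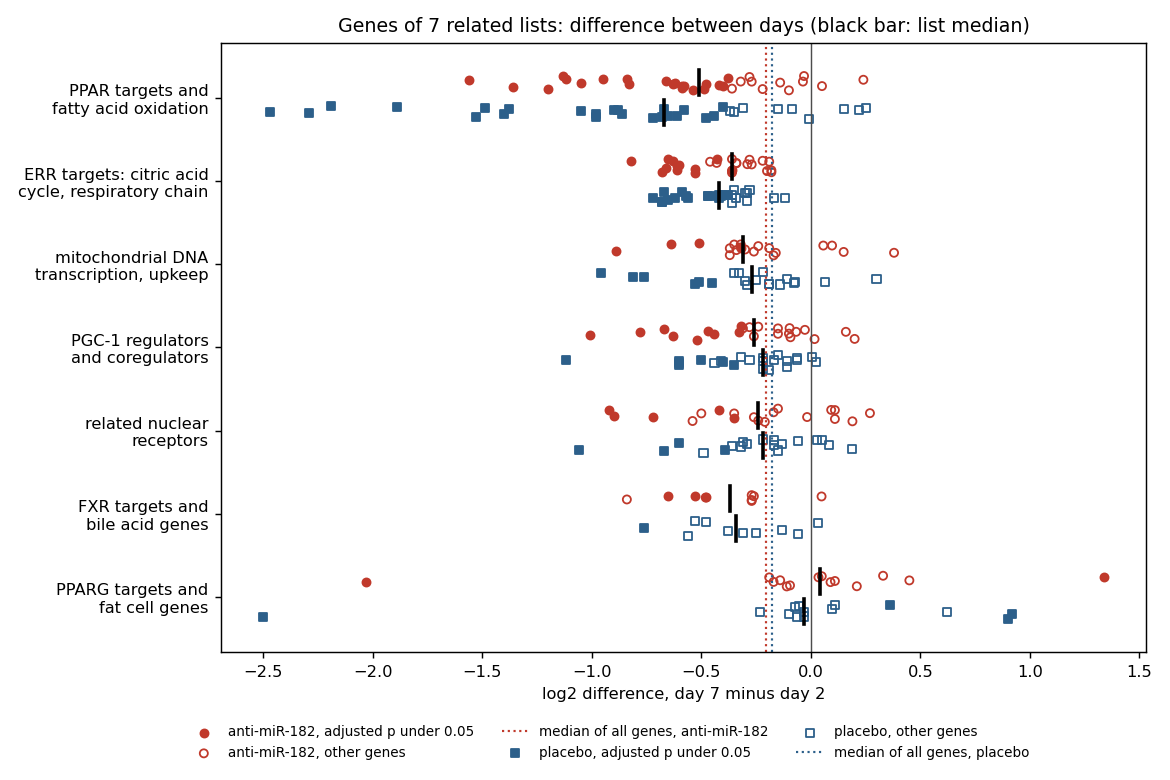
Log2 difference between days (day 7 minus day 2) of each gene of the 7 lists, for anti-miR-182 (red circles) and placebo (blue squares), with filled symbols for an adjusted p under 0.05, black bars for list medians and dotted lines for the median of all genes. The fatty acid oxidation list has the lowest medians of the 7 lists, at -0.51 and -0.67. The fat cell list has medians of 0.04 and -0.03, and its Pck1, at -2.03 and -2.50, is the lowest single gene.

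Of 27 measured ERR targets of the citric acid cycle and respiratory chain, 12 fell under anti-miR-182 and 17 in placebo and 0 rose, with medians of -0.36 and -0.42, and after centring 5 and 4 fell. The shares over all genes were 24.9% and 23.7%, or 7.44% and 9.62% after centring. Slc25a4, the mitochondrial ADP/ATP carrier, fell by 0.60 ± 0.10 and 0.57 ± 0.10 (limma, adjusted p = 0.00166 and 0.00217). Ogdh, a subunit of the oxoglutarate dehydrogenase complex, fell by 0.61 ± 0.13 and 0.72 ± 0.13 (adjusted p = 0.00454 and 0.00176). Cs, citrate synthase, fell by 0.65 ± 0.11 and 0.41 ± 0.11 (adjusted p = 0.0012 and 0.0122). Perm1, a muscle cofactor of PGC-1 and ERR that is counted in this list and among the PGC-1 partners, fell under anti-miR-182 (-0.63 ± 0.12, adjusted p = 0.00249) and read -0.28 ± 0.12 in placebo (adjusted p = 0.0931). The placebo count was 8 to 11 without placebo day 2 replicate 1, 2 or 3 or placebo day 7 replicate 2 or 3. The anti-miR-182 count was 18 without anti-miR-182 day 2 replicate 1 and 8 without anti-miR-182 day 2 replicate 2, the extremes with 1 array left out.

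The machinery that acts with TFAM on mitochondrial DNA had 20 measured genes, of which 4 fell under anti-miR-182 and 6 in placebo, near the 24.9% and 23.7% of all genes that fell, with medians of -0.31 and -0.27. After centring 1 fell under anti-miR-182, and 3 fell and 1 rose in placebo, where 7.44% and 9.62% of all genes fell and 8.15% rose in placebo. Tfb2m, which melts mitochondrial promoters beside TFAM, fell by 0.89 ± 0.23 and 0.96 ± 0.23 (limma, adjusted p = 0.0126 and 0.00851), and Mgme1, a mitochondrial nuclease, fell by 0.64 ± 0.15 and 0.81 ± 0.15 (adjusted p = 0.00724 and 0.002). Lrpprc, which stabilises mitochondrial transcripts, fell under anti-miR-182 (-0.51 ± 0.14, adjusted p = 0.0179), as did Ssbp1 (-0.32 ± 0.11, adjusted p = 0.0393), which was named after its value was seen. Tfb1m fell in placebo (-0.76 ± 0.16, adjusted p = 0.00509). Without anti-miR-182 day 2 replicate 1 the counts were 9 and 10, and without anti-miR-182 day 7 replicate 1 or 3 the first was 2.

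Of 23 measured regulators and partners of PGC-1, 9 fell under anti-miR-182 and 7 in placebo and 0 rose, with medians of -0.26 and -0.22. After centring 4 and 4 fell, with medians of -0.075 and -0.073. The shares of all genes that fell were 24.9% and 23.7%, or 7.44% and 9.62% after centring. Prkaa2, a catalytic subunit of the AMP-activated kinase that phosphorylates PGC-1α, read a mean of 8.88 under anti-miR-182 at day 7, against 9.89 at day 2, and 8.77 in placebo, against 9.89 (-1.01 ± 0.19 and -1.12 ± 0.19, limma, adjusted p = 0.00242 and 0.00138). Prkaa1, the other catalytic subunit of that kinase, fell by 0.67 ± 0.11 and 0.60 ± 0.11 (adjusted p = 0.00105 and 0.0018), and the regulatory subunit Prkab1 by 0.44 ± 0.14 and 0.60 ± 0.14 (adjusted p = 0.0334 and 0.00846). The first count was 4 without anti-miR-182 day 2 replicate 2 or day 7 replicate 1, and the placebo count was 4 without placebo day 2 replicate 3.

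Of 19 related nuclear receptors, 5 fell under anti-miR-182 and 4 in placebo and 0 rose, with medians of -0.24 and -0.22, close to those of all genes, and after centring 3 fell and 1 rose under anti-miR-182 and 3 fell in placebo. Of all genes 24.9% and 23.7% fell. After centring 7.44% and 9.62% fell, and 6.23% rose under anti-miR-182. Vdr, the vitamin D receptor, fell by 0.90 ± 0.16 and 1.06 ± 0.16 (limma, adjusted p = 0.00205 and 0.000766). The retinoid receptor Rxrg fell by 0.72 ± 0.12 and 0.67 ± 0.12 (adjusted p = 0.00147 and 0.00199), and Esrrb, a relative of Esrra, by 0.92 ± 0.13 and 0.60 ± 0.13 (adjusted p = 0.000598 and 0.00622). Rarb and Nr1h2 completed the calls under anti-miR-182 and Nr2f6 those in placebo, and Rarb and Nr1h2 were named after their values were seen. Without anti-miR-182 day 7 replicate 2 or 3 the first count was 3.

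Among 10 measured FXR targets and bile acid genes, 3 fell under anti-miR-182 and 1 in placebo, with medians of -0.37 and -0.34, and after centring 0 and 1 fell. Over all genes 24.9% and 23.7% fell, or 7.44% and 9.62% after centring. Abcc4, an efflux pump of organic anions, fell in placebo (-0.76 ± 0.17, limma, adjusted p = 0.00719) and read -0.27 ± 0.17 under anti-miR-182 (adjusted p = 0.26). Slc51b, a bile acid carrier and direct FXR target, fell under anti-miR-182 (-0.53 ± 0.17, adjusted p = 0.0354), with Baat and Fgf19. The anti-miR-182 count was 1 without anti-miR-182 day 2 replicate 2 or day 7 replicate 3. The placebo count was 3 without placebo day 7 replicate 3, and 1 or 2 without each other array.

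Among 14 measured PPARG targets and fat cell genes, 1 rose and 1 fell under anti-miR-182 and 3 rose and 1 fell in placebo, with medians of 0.04 and -0.03. Of all genes 2.68% rose and 24.9% fell under anti-miR-182, and 4.22% and 23.7% in placebo. All 8 fat markers are also in this list, so its calls and theirs are not separate observations. After centring 3 rose and 1 fell in each treatment, where 6.23% and 8.15% of all genes rose and 7.44% and 9.62% fell. As deposited, the placebo count of rises was 1 without placebo day 2 replicate 2 or 3 or placebo day 7 replicate 2. The anti-miR-182 count of rises was 2 without anti-miR-182 day 2 replicate 1 or 2, anti-miR-182 day 7 replicate 1 or placebo day 2 replicate 1 or 3. Fabp4, a fatty acid carrier of fat cells, macrophages and capillaries, rose by 1.34 ± 0.30 and 0.90 ± 0.30 (limma, adjusted p = 0.00577 and 0.0363). Lpl, lipoprotein lipase, rose in placebo (0.92 ± 0.19, adjusted p = 0.00361) and read 0.05 ± 0.19 under anti-miR-182 (adjusted p = 0.863). Retn, a hormone of rodent fat cells, rose in placebo (0.36 ± 0.12, adjusted p = 0.0414). Pck1, which in the kidney makes glucose in the proximal tubule, fell to a mean of 8.70 under anti-miR-182 at day 7, against 10.73 at day 2, and to 8.05 in placebo, against 10.55 (-2.03 ± 0.29 and -2.50 ± 0.29, adjusted p = 0.000544 and 0.000153).

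Between treatments no gene of the 7 lists was called on either day. At day 7, 23 of 32 fatty acid oxidation genes were higher under anti-miR-182, with a list median of 0.17 beside -0.001 over all genes, and 8 had an unadjusted p under 0.05. Those with the smallest unadjusted p were Vnn1 (1.0 ± 0.28), the fatty acid hydroxylase Cyp4a1 (0.77 ± 0.27) and the isomerase Eci1 (0.49 ± 0.19), each with an adjusted p of 0.999 in limma. At day 2, 16 of the 32 were higher, the median was -0.01, and 3 had an unadjusted p under 0.05. The change of the treatment difference between days had a list median of 0.23, beside -0.027 over all genes, with 0 genes called and 8 at an unadjusted p under 0.05. The proximal tubule markers differed in the same direction: 12 of 13 were higher under anti-miR-182 at day 7 (median 0.29), 0 called and 2 at an unadjusted p under 0.05. Their score was 4.12, 3.93 and 3.21 under anti-miR-182 against 3.58, 3.52 and 3.33 in placebo at day 7, so the groups overlap, and their part in the result was not tested. Collecting duct markers differed the other way at day 7 (9 of 10 lower, median -0.19, 0 called, 2 at an unadjusted p under 0.05). Fibroblast markers did too (8 of 8 lower, median -0.43, 0 called, 3 at an unadjusted p under 0.05). Their scores of 1.32 to 1.39 under anti-miR-182 and 1.58 to 2.4 in placebo do not overlap. Macrophage markers were also lower (8 of 10, median -0.27, 0 called), with overlapping scores of 1.29 to 1.45 and 1.18 to 2.21. At day 2 tubular injury markers were lower under anti-miR-182 (7 of 10, median -0.52, 0 called, 4 at an unadjusted p under 0.05), with scores of 1.66 to 2.41 against 2.49 to 2.71 in placebo, which do not overlap. Collecting duct markers were higher there (9 of 10, median 0.23, 0 called), with scores of 1.35 to 1.81 against 1.25 to 1.43. The part of these markers in the treatment differences of the members was not tested.

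Within a day the members did not all vary together. Over the 6 day 2 arrays Pearson's r was 0.83 between Ppara and Tfam, 0.93 between Nr1h4 and Tfam and 0.90 between Ppargc1a and Nr1h4, and over the 6 day 7 arrays it was -0.73, -0.90 and -0.01. These pairs are among the highest of day 2. Over all pairs of members r ran from -0.67 to 0.93 at day 2 and from -0.90 to 0.70 at day 7. The day 7 values of Tfam spanned only 7.56 to 7.68. In placebo at day 2, Nr1h4 spanned only 8.66 to 8.72 and Tfam 8.27 to 8.33, so their day 2 r rests mostly on the anti-miR-182 arrays. These correlations describe arrays that share treatment groups and tissue makeup, and no p is given.

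The genes most like each member were taken by the highest Pearson's r of the log2 signals over all 12 arrays among 17689 annotated genes. The difference between days enters this r, and r after subtracting each day's mean is given second. Picking the highest of 17689 genes on 12 arrays gives high values of r by itself. The second r comes from the same arrays and is no separate check. Ppara was most like Wdr45 (0.979 and 0.918) and the kinase subunit Prkaa2 (0.978 and 0.894). Nr1h4 was most like the brush border scaffold Pdzk1 (0.979 and 0.971) and the tubular cation exporter Slc47a1 (0.976 and 0.943). Rxra was most like Bmp7 (0.964 and 0.962), and Tfam most like Erh (0.984 and 0.976) and Xpo4 (0.980 and 0.896), although Xpo4 had r = -0.593 within day 7. Ppargc1a was most like Nat8f1 (0.913 and 0.927), Ppargc1b most like Gata2 (0.962 and 0.917), Esrra most like Rps13-ps8 (0.954 and 0.917), Pparg most like Cox4i2 (0.923 and 0.860) and Ppard most like Mlf2 (0.861 and 0.890).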

How the data were processed

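Total RNA from rat kidney was extracted with Trizol, and 200 ng per sample was amplified and labelled with biotin, per the labels' protocols. The deposited table holds log2 signals of 36685 rows on 12 arrays, made by the authors with RMA per the submitters' processing notes, in a version not given in the sources used here. RMA corrects background, normalizes between arrays and summarises probes into a log2 value. It was used as deposited. Whether both days were normalized in 1 run is not given in the sources used here. Descriptions mention a zero-hour biopsy where titles give day 2 or day 7; the titles set the groups, and replicate numbers follow accession order. The labels give animal codes, which were taken as separate animals.

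The annotation table lists 19086 rows, of which 18511 have 1 gene symbol and 575 several, and 17599 rows are unnamed here. Those 1-symbol rows with complete values stand for 18166 genes; for 291 with several rows, the row with the highest mean was used. Arrays correlated at up to 0.9939, at 0.9777 or more within groups, and shared at most 18 identical values. A model of 4 group means was fitted per gene with limma 3.58.1 (R 4.3.3), followed by eBayes on 6 contrasts. Values after ± are standard errors of that fit unless SD is named. P-values were adjusted by Benjamini-Hochberg over all genes, with a threshold of 0.05. Only 3 arrays a group limit the precision.

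The members and lists were chosen with earlier results of these data known, in which fatty acid oxidation genes and Mir182 stood out. Genes named from a pathway list are among the 3 with the smallest unadjusted p in one of the 6 comparisons, beside cell type markers and up to 2 genes most like each member; others are said to be named after their values were seen. The list name Fgf15 was read as Fgf19. Marker lists covered proximal tubule, thick ascending limb, collecting duct, fat, macrophage, endothelium, fibroblast, urothelium, adrenal cortex and tubular injury. The steps were tested on simulated data in which 200 of 18166 genes changed. Promoter and microRNA sequences are RefSeq's on GRCr8; the array files name no build. Alternatives were each day alone, trend, robust or weighted fits, quantile normalization and median centring. Others dropped the 25% or 50% of genes with the lowest mean, took the mean or every row of a gene, or used other thresholds. Each array was also left out in turn, and a split of the animal codes at 90 was used as covariate. All day 2 codes and only part of the day 7 codes lay above 90, so this covariate is largely tied to day. Leaving out arrays for the list counts was added after the data were seen.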

Additional observations from a re-analysis of the deposited data

How the results depend on the processing

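The direction of Ppara, Tfam, Nr1h4, Rxra and Pparg in the day comparisons where they were called was kept under every alternative run. Of 54 member values, 23 kept direction and side of the threshold throughout. The cause of the changes given here was not tested, except where the alternative removes genes or arrays. No paired analysis was possible because the labels give animal codes and no replicate numbers shared between groups. Leaving out the dimmest 50% of genes removes the dimmest members, which then have no value.

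For anti-miR-182 against placebo at day 2, 1 gene was called with each day fitted alone, with array weights, with the animal code split or at an adjusted p under 0.1. As a mean of both days 0 were called without the dimmest 25% or 50% of genes, which removes Mir182. With 1 array left out the counts were 0 to 1 at day 2, 0 to 3 at day 7, 0 to 4 as a mean and 0 to 1 for the change between days. For day 7 against day 2 under anti-miR-182, 2651 genes were called without the dimmest 50%, 2695 with quantile normalization (1311 higher and 1384 lower), 2482 after centring and 308 with a log2 difference of at least 1, and 3069 to 5072 with 1 array left out. Members called there were 1 with quantile normalization, 1 after centring and 1 with a log2 difference of at least 1. In placebo these gene counts were 3364, 2914 (1478 higher and 1436 lower), 3228 and 385, and 3198 to 5773 with 1 array left out, and the members called were 2 with quantile normalization, 3 after centring, 1 with a log2 difference of at least 1 and 3 to 5 with 1 array left out.

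Reversals were seen only among differences that were not called. With array weights, treatment differences at day 2 were 0.0049 for Ppargc1b, 0.076 for Ppara and -0.00059 for Nr1h4, those of the mean were 0.069 for Ppara and 0.015 for Rxra, the changes between days were -0.014 for Ppara and -0.059 for Esrra, and the day difference of Rxra under anti-miR-182 was -0.071. Ppard at day 7 was 0.014 with quantile normalization, 0.0074 after centring and 0.031 with the mean of its rows, and the mean of Ppara was 0.0024 with quantile normalization. The day difference in placebo was 0.26 (quantile), 0.065 (centred) and 0.12 (animal code split) for Ppargc1a, and 0.034, 0.035 and 0.055 (quantile, centred, mean of rows) for Ppard. Under anti-miR-182 it was 0.084 (quantile) for Ppargc1a, 0.035 (quantile) and 0.043 (centred) for Ppargc1b, and with the animal code split -0.0076 for Ppard and -0.17 for Rxra.

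With 1 array left out, treatment differences at day 2 ran from -0.013 to 0.13 for Ppargc1a, -0.11 to 0.061 for Ppargc1b, -0.24 to 0.25 for Ppara, -0.19 to 0.24 for Nr1h4 and -0.26 to 0.083 for Tfam. At day 7 they ran from -0.20 to 0.10 for Ppargc1a, -0.058 to 0.18 for Ppara and -0.16 to 0.11 for Ppard. Means of both days ran from -0.080 to 0.073 for Ppargc1a, -0.098 to 0.15 for Ppara, -0.14 to 0.018 for Pparg, -0.15 to 0.028 for Rxra and -0.16 to 0.0098 for Tfam. Changes between days ran from -0.25 to 0.061 for Ppargc1a, -0.20 to 0.29 for Ppara, -0.13 to 0.10 for Esrra and -0.15 to 0.20 for Tfam. Day differences ran from -0.27 to 0.033 for Ppargc1a and -0.23 to 0.035 for Ppard in placebo, and from -0.037 to 0.16 for Ppard and -0.11 to 0.28 for Rxra under anti-miR-182.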
